A study of Homo sapiens with 9 samples.

Results

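The 10 genes described here make serine from glucose and pass its carbon to folate: the serine synthesis enzymes PHGDH, PSAT1 and PSPH, the serine hydroxymethyltransferases SHMT1 and SHMT2, the folate enzymes MTHFD1, MTHFD1L, MTHFD2 and ALDH1L2, and the neutral amino acid transporter SLC1A4. They were matched by Ensembl gene identifier among 60308 identifiers, and all 10 passed the filter on low counts. RNA was measured in MCF10A, a non-tumorigenic breast epithelial line that was immortalised in culture. All 9 cultures carried ectopic MYC (pBABE-hygro-MYC) and the H1047R mutant of PI3K with GFP (pMN-IRES-GFP-PI3KH1047R), the controls included, and were grown in medium with horse serum, EGF, insulin, hydrocortisone and cholera toxin. Every culture also held a hairpin plasmid (pLKO-tetON-puro), switched on by doxycycline at 2 µg/mL over 72 hours. The first group held shG9a 1 and the second shG9a 4, both directed against EHMT2, which encodes G9a, a histone methyltransferase, and the third held the scrambled hairpin shSCR, with 3 replicates each. The groups are written shG9a1, shG9a4 and shSCR. The design text calls the replicates biological, and no source used here says whether each plasmid was introduced more than once, so the p-values measure the spread between these cultures.

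De novo serine synthesis starts from a glycolytic intermediate, which PHGDH oxidises, PSAT1 transaminates and PSPH dephosphorylates. SHMT2 in mitochondria and SHMT1 in the cytosol cleave serine to glycine and load its side-chain carbon onto tetrahydrofolate, and the MTHFD enzymes carry that unit through methenyl- and formyl-folate to formate, used for purines, thymidylate and methyl groups. The pathway is a known target of the amino acid response factor ATF4 and of MYC, and G9a has been reported to keep serine and glycine synthesis genes active in cancer cell lines. Amplified or raised PHGDH is well known in a subset of breast cancers.

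The libraries held 53065611 to 76958831 reads in genes, so that a single one of the 10 genes had 285 to 28691 reads in a library. EHMT2, the targeted gene, had 17.6, 22.6 and 21.0 CPM (reads of a gene per 1000000 reads of the TMM-scaled library size) in shG9a1, 32.1, 27.2 and 33.5 CPM in shG9a4 and 51.1, 45.2 and 45.4 CPM in shSCR. In shG9a1 the log2 fold change of EHMT2 was -1.21 ± 0.11 (SE; adjusted p = 0.00766 by edgeR's quasi-likelihood test with Benjamini-Hochberg adjustment over all genes) and in shG9a4 it was -0.61 (adjusted p = 0.259), which passed in 3 alternatives (unfiltered, by likelihood ratio and with DESeq2), with 2.24e-05 as the lowest adjusted p. The shG9a1 call was lost without shG9a1 replicate 2 or 3 or shSCR replicate 1, at an adjusted p of at most 0.0622. PIK3CA, whose reads include any from the PI3K construct, averaged 201 CPM in shG9a1, 200 CPM in shG9a4 and 145 CPM in shSCR, and passed the threshold with the replicate number as a block (adjusted p = 0.00769 for shG9a1) or with no filter, but in no other fit. MYC averaged 182 CPM in shG9a1, 183 CPM in shG9a4 and 186 CPM in shSCR. The basal epithelial gene KRT5 averaged 2872 CPM in shG9a1, 2611 CPM in shG9a4 and 2353 CPM in shSCR, and the 8 luminal markers summed to 422 to 639 CPM, most of it KRT8 and KRT18, with KRT19 and PGR under 0.165 CPM. Of 8 fibroblast markers, 5 averaged under 1 CPM, among them COL1A2, COL3A1, PDGFRA and THY1, and decorin (DCN) held nearly all of the list's sum of 140 to 422 CPM. The 6 leukocyte and endothelial markers summed to 0.212 CPM at most.

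The promoter stretches of 5 of the genes are shown because their RNA differed in how far it varied between the libraries, from PHGDH, the most variable, to MTHFD1, the least. Of the 10 genes, 7 had an entry in the RefSeq promoter table (GRCh38.p14, plus strand for the 5 shown); PSPH, SHMT2 and ALDH1L2 had none. Each line gives the 200 bases before an annotated start, 5′ to 3′, with capitals for matches on either strand to CACGTG (the E-box bound by MYC and MAX), TGATGNAA (the composite element of C/EBP and ATF factors) or CCAAT (the box bound by NF-Y), and the motifs do not overlap in these stretches.
PHGDH, chr1:119711734-119711933: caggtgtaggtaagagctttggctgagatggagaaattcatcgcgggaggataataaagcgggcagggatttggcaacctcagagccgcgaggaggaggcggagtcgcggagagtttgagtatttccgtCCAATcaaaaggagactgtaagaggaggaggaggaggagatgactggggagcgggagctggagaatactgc
PSAT1, chr9:78296925-78297124: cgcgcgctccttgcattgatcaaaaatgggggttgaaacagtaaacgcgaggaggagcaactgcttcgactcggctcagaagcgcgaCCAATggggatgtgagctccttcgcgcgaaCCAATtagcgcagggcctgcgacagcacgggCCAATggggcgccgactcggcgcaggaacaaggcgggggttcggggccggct
MTHFD1, chr14:64388153-64388352: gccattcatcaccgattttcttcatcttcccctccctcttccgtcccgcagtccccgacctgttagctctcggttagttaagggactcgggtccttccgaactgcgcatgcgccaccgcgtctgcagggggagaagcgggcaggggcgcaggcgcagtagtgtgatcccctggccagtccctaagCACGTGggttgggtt
MTHFD1L, the most upstream of its 4 annotated starts, chr6:150866133-150866332: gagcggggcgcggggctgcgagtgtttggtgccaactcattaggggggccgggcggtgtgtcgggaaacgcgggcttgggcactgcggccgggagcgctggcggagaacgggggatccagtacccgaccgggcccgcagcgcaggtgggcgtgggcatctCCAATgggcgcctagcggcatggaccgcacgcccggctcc
MTHFD2, chr2:74198415-74198614: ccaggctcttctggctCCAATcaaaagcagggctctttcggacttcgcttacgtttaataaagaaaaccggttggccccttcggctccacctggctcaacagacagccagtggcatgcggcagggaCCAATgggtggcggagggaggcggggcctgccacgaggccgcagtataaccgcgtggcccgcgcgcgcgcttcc
PSAT1 held 3 CCAAT boxes, at 113, 83 and 52 bases before the start, MTHFD2 held 2 and PHGDH 1. MTHFD1 held the E-box at 15 bases before its start and no CCAAT box. Of the genes with an entry that are not shown, SHMT1 held 2 CCAAT boxes, although its RNA varied only 1.17-fold between the lowest and highest library. SLC1A4 held 1 before an annotated start. A relation of these motifs to the variation of the RNA was not tested. MTHFD1L held an E-box and a TGATGNAA element at 154 and 129 bases before the most downstream of 3 neighbouring starts, which places both from the last base of the stretch shown onward. Over all 35116 promoter entries, 5.49% held CACGTG, 2.57% TGATGNAA and 28% CCAAT in a stretch of this length. A match is a description of the letters and shows no binding.

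Per kilobase of the principal transcript, which allows levels of different genes to be compared, SHMT2 (86.7 CPM per kb in shSCR), MTHFD2 (83.4) and PSAT1 (78.4) were the most abundant of the 10 in control cells. These 3 overlapped between libraries. MTHFD1 followed at 60.6 CPM per kb and MTHFD1L at 28.2 CPM per kb. PHGDH (20.8), SHMT1 (20.1) and PSPH (19.8) overlapped in their shSCR libraries, ALDH1L2 stood at 11.4 CPM per kb and SLC1A4 was lowest at 1.41 CPM per kb. With the length of all annotated exons in place of the principal transcript, PSAT1 (78.4 CPM per kb) and MTHFD2 (76.4 CPM per kb) came before SHMT2 (45.5 CPM per kb), and PHGDH stood at 5.84 CPM per kb, so the order within the upper and lower groups depends on the transcript length chosen. The 10 genes together took 1188, 1143 and 1114 CPM of the RNA in shG9a1, 1265, 1213 and 1165 CPM in shG9a4 and 1412, 1259.5 and 1208 CPM in shSCR.

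None of the 10 genes passed the adjusted threshold of 0.05 in either hairpin comparison. The fits called 0.0380% of 18435 genes in shG9a1 against shSCR and 0.0271% in shG9a4 against shSCR. At this few calls over all genes, 0 of 10 is no result about these genes, and the intervals show what the data could still hold. In shG9a1, 9 of the 10 had a log2 fold change below 0, as had 49.8% of all genes, with a median of -0.18 against 0.00 over all genes; in shG9a4, 9 of 10 were below 0, as were 49.2% of all genes, with a median of -0.10 against 0.00. Without replicate 1 of shSCR, the highest library for most of the 10 genes, the counts were 8 and 6 of 10 and the medians -0.12 and -0.02. Of 18429 genes present with and without that library, 9144 and 9047 were below 0 without it, with medians of 0.00. At an unadjusted p under 0.05, edgeR gave 5 genes lower in shG9a1 (PHGDH, PSAT1, PSPH, SHMT2 and MTHFD1L), where 3.15% of all genes were lower at that level, and 0 in shG9a4, where 0.971% were. In shG9a1 the median SE of the log2 fold change was 0.08 for the 10 genes and 0.15 over all genes. A smaller change reaches that level at a smaller SE, so the shares of all genes, here and below, are not from equally measured genes. The 2 comparisons share the shSCR libraries. In these bulk RNA samples, fewer cells with a transcript and less of it per cell cannot be told apart.

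**Figure D1:**
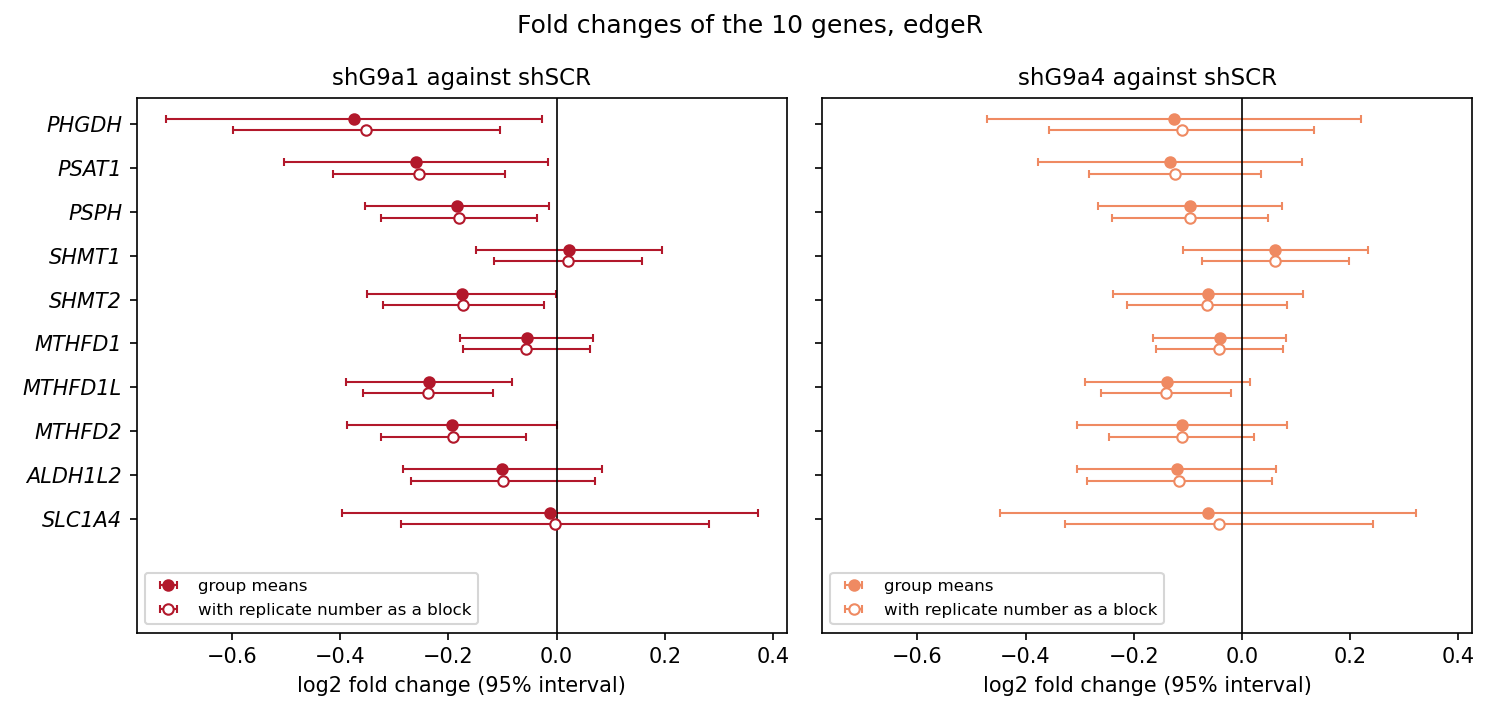
Log2 fold changes (x axis) of the 10 genes (y axis) in shG9a1 against shSCR (left) and shG9a4 against shSCR (right), with 95% intervals as bars; filled points are from group means and open points from the fit with replicate number as a block. SHMT1 is the one gene right of 0 in both panels, and PHGDH in shG9a1 is farthest left at -0.37.

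PHGDH, which commits glycolytic carbon to serine, had 40.1, 46.8 and 37.5 CPM in shG9a1, 55.5, 47.2 and 45.1 CPM in shG9a4 and 69.1, 48.3 and 43.9 CPM in shSCR. The shSCR library of replicate 1 was the highest of the 9, and the groups overlapped. The log2 fold change was -0.37 (95% interval -0.72 to -0.03, adjusted p = 0.642 by edgeR) in shG9a1 and -0.13 (-0.47 to 0.22, adjusted p = 1.00) in shG9a4. Without shSCR replicate 1 these values became -0.15 in shG9a1 and 0.10 in shG9a4, with a change of sign in the second. With no filter on low counts, PHGDH passed in shG9a1 (adjusted p = 0.0179), the lowest of a range of 0.0179 to 1.00 over the alternatives. The unfiltered fit called 288 genes in shG9a1, against 7 with the filter.

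PSAT1, the aminotransferase of the second step, had 155, 147 and 128 CPM in shG9a1, 161, 162 and 147 CPM in shG9a4 and 204, 158 and 153 CPM in shSCR. Again shSCR replicate 1 stood highest, and 1 of the 3 shG9a1 libraries lay inside the shSCR range. The log2 fold change was -0.26 (-0.50 to -0.02, adjusted p = 0.644 by edgeR) in shG9a1 and -0.13 (-0.38 to 0.11) in shG9a4. Without shSCR replicate 1 it was -0.12 in shG9a1 and 0.01 in shG9a4.

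PSPH, the phosphatase that releases serine, had 38.2, 37.2 and 38.2 CPM in shG9a1, 42.7, 38.4 and 39.6 CPM in shG9a4 and 47.0, 41.7 and 40.3 CPM in shSCR. All shG9a1 libraries lay below all shSCR libraries, as for 7.54% of all genes, and the shG9a4 libraries overlapped those of shSCR. The log2 fold change was -0.18 (-0.35 to -0.01, adjusted p = 0.642 by edgeR) in shG9a1 and -0.10 (-0.27 to 0.07) in shG9a4. The shG9a1 value without shSCR replicate 1 was -0.11.

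**Figure D2:**
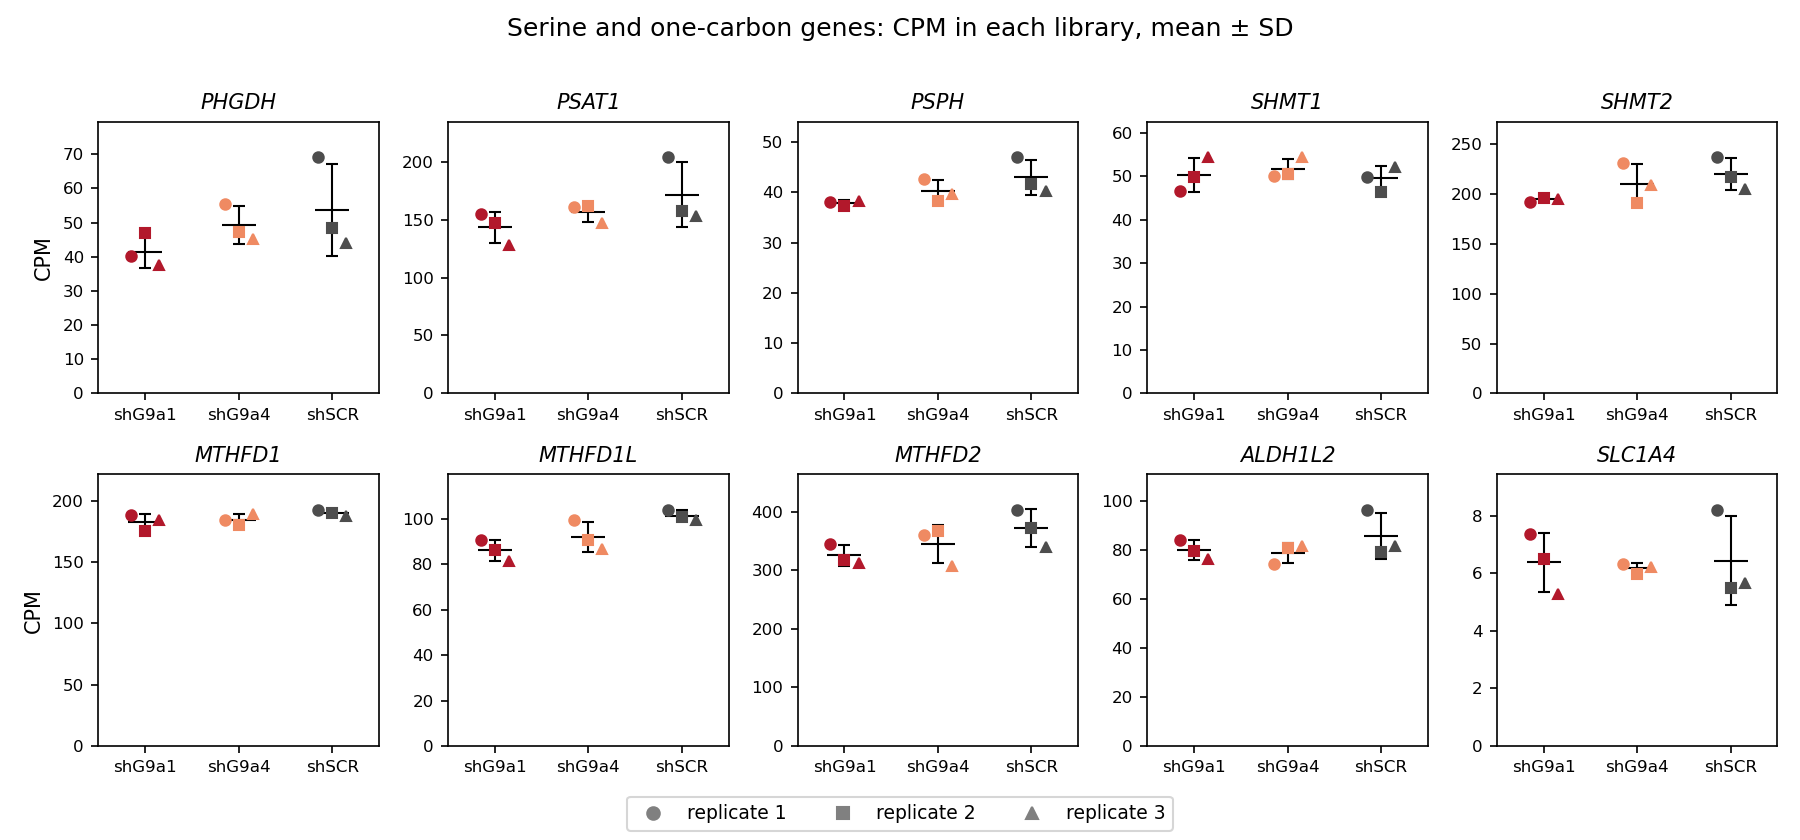
CPM of each of the 10 genes (y axis from 0, a scale of its own per gene) in the 3 libraries of shG9a1, shG9a4 and shSCR (x axis); points are libraries, with the marker giving the replicate number, and bars the group mean ± SD. Replicate 1 of shSCR (grey circle) is the highest point for every gene but SHMT1.

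SHMT2, the mitochondrial serine hydroxymethyltransferase, had 192, 196 and 196 CPM in shG9a1, 232, 191 and 209 CPM in shG9a4 and 237, 217 and 205 CPM in shSCR. The shG9a1 libraries were close to each other and all below shSCR, whereas shG9a4 spread over both. Its log2 fold change was -0.18 (-0.35 to -0.00035, adjusted p = 0.665 by edgeR) in shG9a1 and -0.06 (-0.24 to 0.11) in shG9a4. SHMT1, the cytosolic enzyme, had 46.6, 49.98 and 54.5 CPM in shG9a1, 50.1, 50.7 and 54.4 CPM in shG9a4 and 49.9, 46.5 and 52.2 CPM in shSCR. Its log2 fold changes of 0.02 (-0.15 to 0.19) and 0.06 (-0.11 to 0.23) lay within the spread of the libraries. The ratio of SHMT2 to SHMT1 CPM averaged 3.88 ± 0.27 in shG9a1, 4.08 ± 0.47 in shG9a4 and 4.45 ± 0.46 in shSCR (SD, n = 3 each), with overlapping ranges.

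MTHFD1L, the mitochondrial formyl-tetrahydrofolate synthetase that releases formate, had 90.8, 86.3 and 81.3 CPM in shG9a1, 99.5, 90.6 and 86.6 CPM in shG9a4 and 104, 101 and 99.5 CPM in shSCR. The shSCR libraries were within a narrow range, all shG9a1 libraries were below them, and the highest shG9a4 library reached the lowest shSCR library. The log2 fold change in shG9a1 was -0.24 (-0.39 to -0.08, adjusted p = 0.564 by edgeR), a level 15.1% lower, and in shG9a4 it was -0.14 (-0.29 to 0.02). Leaving out shSCR replicate 1 gave -0.22 in shG9a1 and -0.12 in shG9a4, and over every alternative run the values stayed between -0.27 and -0.20 in shG9a1 and between -0.20 and -0.09 in shG9a4. MTHFD1, the cytosolic enzyme that joins the same reaction with others, had 189, 175 and 185 CPM in shG9a1, 184, 180 and 189 CPM in shG9a4 and 193, 190 and 187 CPM in shSCR, and its log2 fold changes were -0.06 (-0.18 to 0.07) and -0.04 (-0.16 to 0.08). The ratio of MTHFD1L to MTHFD1 CPM averaged 0.471 ± 0.027 in shG9a1, 0.500 ± 0.041 in shG9a4 and 0.534 ± 0.005 in shSCR (SD, n = 3 each). This ratio repeats the MTHFD1L values given above and is no separate result.

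MTHFD2, the mitochondrial dehydrogenase and cyclohydrolase, was the gene of the 10 with the highest CPM. It had 345, 317 and 313 CPM in shG9a1, 360, 366 and 307 CPM in shG9a4 and 403, 373 and 339 CPM in shSCR. Within each replicate number, shG9a1 and shG9a4 were below shSCR, although the groups overlapped. Its log2 fold change was -0.19 (-0.39 to 0.00041, adjusted p = 0.665 by edgeR) in shG9a1 and -0.11 (-0.30 to 0.08) in shG9a4. ALDH1L2, which oxidises mitochondrial formyl-tetrahydrofolate, had 84.1, 79.6 and 76.1 CPM in shG9a1, 74.1, 80.8 and 81.7 CPM in shG9a4 and 96.4, 79.4 and 81.4 CPM in shSCR. Only shSCR replicate 1 stood above the others, and its log2 fold changes of -0.10 (-0.28 to 0.08) in shG9a1 and -0.12 (-0.30 to 0.06) in shG9a4 became -0.01 and -0.03 without it.

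SLC1A4, a sodium-dependent transporter of serine, alanine and other small neutral amino acids, was low in these cells. It had 7.34, 6.49 and 5.29 CPM in shG9a1, 6.31, 5.97 and 6.21 CPM in shG9a4 and 8.20, 5.47 and 5.64 CPM in shSCR. Its log2 fold changes of -0.01 (-0.40 to 0.37) and -0.06 (-0.45 to 0.32) had the widest intervals of the 10 and changed sign, to 0.20 and 0.15, without shSCR replicate 1.

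Replicate 1 of shSCR was the highest of the 9 libraries for 9 of the 10 genes, all but SHMT1, against 10.8% of all genes tested. Its log2 deviation from a gene's mean over the libraries was 0.54 for PHGDH, 0.39 for PSAT1, 0.39 for SLC1A4, 0.25 for ALDH1L2, 0.22 for PSPH and MTHFD2, and 0.05 for MTHFD1. The same library was the highest for 12 of 28 genes of a fixed list of ATF4 and amino acid response genes, with ATF4 itself at 466 CPM there, 375 and 372 CPM in the other shSCR libraries. It had the fewest genes detected of the 9 libraries, 26759 against 26922 to 28346 in the others. It held 64478683 reads in genes, and its unmapped, multimapped and unassigned shares lay inside the range of the other libraries. Without it, 1 gene rather than 5 was lower in shG9a1 at an unadjusted p under 0.05. That count was also 3, 2 and 1 without shG9a1 replicate 1, 2 and 3, 2 without shG9a4 replicate 3 and 3 without shSCR replicate 2. Calls over all genes at the adjusted threshold were 7 with all 9 libraries and 0 without shSCR replicate 1. They were 1, 0 and 0 without shG9a1 replicate 1, 2 and 3, 8 without shG9a4 replicate 3 and 1 without shSCR replicate 2. The share of all genes at the unadjusted level is not given for these fits, so the counts cannot be set against it. Which of culture, RNA or library set shSCR replicate 1 apart was not tested.

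**Figure D3:**
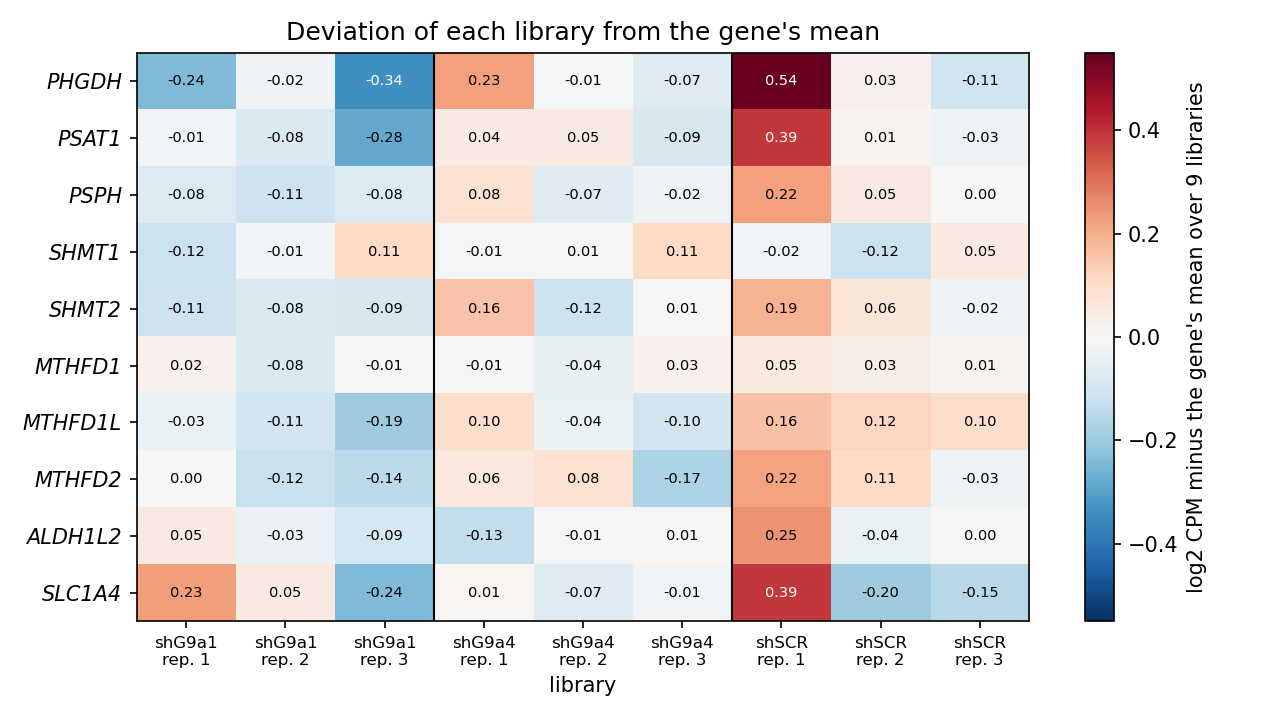
Log2 CPM of the 10 genes (rows) in each library (columns, by group) minus the gene's mean over the 9 libraries, as colour and number. The column of shSCR replicate 1 is highest for 9 of 10 genes, with 0.54 for PHGDH, while PSPH, MTHFD1 and MTHFD1L are above their mean in all 3 shSCR libraries.

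Libraries of the same replicate number varied together across all genes. As a term in the fit, the replicate number was called by edgeR for 7.47% of all genes and for 0 of the 10; at an unadjusted p under 0.05 it covered 23.2% of all genes and 4 of the 10, PHGDH, PSAT1, MTHFD2 and SLC1A4. Comparing each hairpin library with the shSCR library of its number, shG9a1 was lower in 3 of 3 pairs for 7 of the 10 genes, against 19.6% of all genes, and shG9a4 for PSPH, MTHFD1L and MTHFD2, against 12.5%. For MTHFD1L the log2 ratios in shG9a1 were -0.20, -0.23 and -0.29 over the 3 numbers, and in shG9a4 -0.06, -0.16 and -0.20. For PHGDH they were -0.78, -0.05 and -0.23 in shG9a1 and -0.32, -0.03 and 0.04 in shG9a4, which shows how far the first number carried its difference. All shG9a1 libraries lay below all shSCR libraries for PSPH, SHMT2 and MTHFD1L, 3 of the 10, against 7.54% of all genes, and for shG9a4 this held for 0 of the 10, against 3.18%.

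With replicate number as a block, 0 of the 10 genes passed in either comparison, where the fit called 0.776% of all genes in shG9a1 and 0.0759% in shG9a4. MTHFD1L then had an adjusted p of 0.0804 in shG9a1, PSAT1 0.144 and PHGDH 0.187. At an unadjusted p under 0.05, 6 of the 10 were lower in shG9a1 in that fit (the 5 named and MTHFD2), against 5.15% of all genes, and MTHFD1L alone in shG9a4, against 1.93%.

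**Figure D4:**
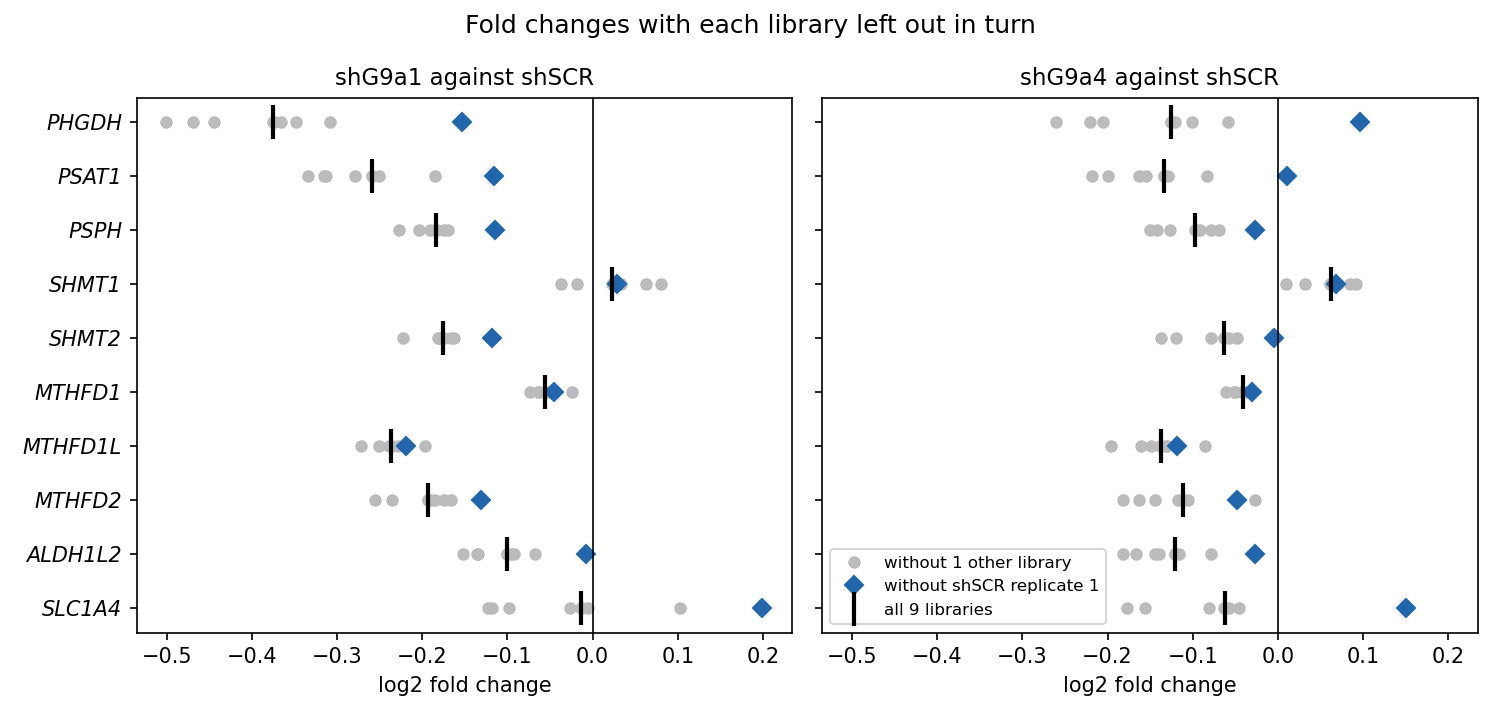
Log2 fold change (x axis) of each of the 10 genes (y axis) in shG9a1 against shSCR (left) and shG9a4 against shSCR (right) with all 9 libraries (black bar), without shSCR replicate 1 (blue diamond) and without each other library (grey points). PSPH, SHMT2, MTHFD1, MTHFD1L, MTHFD2 and ALDH1L2 keep to the left of 0 in both panels, while PHGDH moves to 0.10 in the right panel.

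Set directly against each other, the hairpins gave no call among the 10 genes. Of all genes 0% were called by edgeR in shG9a1 against shG9a4; 4.09% had an unadjusted p under 0.05, and 0 of the 10 did. DESeq2 and edgeR's likelihood ratio test called 6 and 5 genes, with 0 of the 10 among them in each. PHGDH had the largest difference of the 10, a log2 fold change of -0.25 (-0.60 to 0.10), with EHMT2 itself at 20.4 ± 2.6 CPM in shG9a1 and 30.9 ± 3.3 CPM in shG9a4 (SD, n = 3 each). For MTHFD1L the difference between the hairpins was -0.10 (-0.25 to 0.05). The log2 fold changes of shG9a1 over shG9a4 were -0.13 for PSAT1, -0.11 for SHMT2, -0.09 for PSPH, -0.08 for MTHFD2, -0.04 for SHMT1, -0.01 for MTHFD1, 0.02 for ALDH1L2 and 0.05 for SLC1A4. The mean of both hairpins against shSCR called 0.0488% of all genes and 0 of the 10 by edgeR; at an unadjusted p under 0.05, MTHFD1L alone was lower (log2 fold change -0.19, adjusted p = 0.939), against 1.96% of all genes. With the replicate block 5 of the 10 were lower at that level for the mean of both hairpins (PHGDH, PSAT1, PSPH, MTHFD1L and MTHFD2), against 3.61% of all genes, and 0 passed the adjusted threshold, where 0.184% of all genes did. The other log2 fold changes for the mean of both hairpins, without the block, were -0.25 for PHGDH, -0.20 for PSAT1, -0.15 for MTHFD2, -0.14 for PSPH, -0.12 for SHMT2, -0.11 for ALDH1L2, -0.05 for MTHFD1, -0.04 for SLC1A4 and 0.04 for SHMT1.

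The authors' deposited table for shG9a1 gives, for each gene, a posterior probability that it differs from shSCR (PPDE) and a fold. In the authors' deposited table MTHFD1L has a PPDE of 1 and a fold of 0.842, the one gene of the 10 at 0.95 or more, where 3.00% of its genes stand. SHMT2 follows in the authors' deposited table with a PPDE of 0.626 and PSPH with 0.402, whereas PHGDH, with the lowest fold of the 10 (0.766), has 0.00844. In the authors' deposited table for shG9a4, 0.614% of genes and 0 of the 10 reach 0.95, and MTHFD1L has a PPDE of 0.0251 and a fold of 0.905.

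Of 19 other tested folate cycle and one-carbon genes, 10 were higher and 9 lower in shG9a1, with a median log2 fold change of 0.03, and 8 were higher and 11 lower in shG9a4, with a median of -0.02; 0 passed in either comparison. MTHFD2L, the second mitochondrial isoenzyme of MTHFD2, had the opposite sign to MTHFD2 in both comparisons. It had 92.9, 85.3 and 69.0 CPM in shG9a1, 78.2, 82.7 and 60.2 CPM in shG9a4 and 69.0, 68.2 and 58.5 CPM in shSCR. In shG9a1 the log2 fold change of MTHFD2L was 0.34 ± 0.13 (SE; adjusted p = 0.629 by edgeR), and in shG9a4 it was 0.18. With the replicate block it passed in shG9a1 (adjusted p = 0.0454), in a range of 0.0395 to 1.00 over 18 alternatives, of which 2 were past the threshold, and its log2 fold change without shSCR replicate 1 was 0.38. Thymidylate synthase (TYMS, -0.08) and the glycine decarboxylase GLDC (0.10, at 4.03 CPM in shG9a1) had log2 fold changes in shG9a1 that did not pass. FTCD, DMGDH, SARDH and GNMT were under 0.2 CPM in every library.

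Among 16 tested genes of serine and glycine use and transport, 6 were higher and 10 lower in shG9a1, and 10 were higher and 6 lower in shG9a4, and 0 passed. The mitochondrial serine carrier SFXN1 had 305, 278 and 282 CPM in shG9a1, 329, 335 and 296 CPM in shG9a4 and 330, 326 and 316 CPM in shSCR, with a log2 fold change of -0.17 in shG9a1 (adjusted p = 0.629 by edgeR). Its relative SFXN3 had 32.0, 31.2 and 31.7 CPM in shG9a1, 29.2, 29.5 and 29.3 CPM in shG9a4 and 22.6, 28.2 and 24.8 CPM in shSCR. SFXN3 had log2 fold changes of 0.33 in shG9a1 (adjusted p = 0.474) and 0.22 in shG9a4 by edgeR. SDSL, a serine dehydratase-like enzyme, averaged 2.77 CPM in shG9a1, 1.75 CPM in shG9a4 and 1.64 CPM in shSCR (log2 fold change 0.75 in shG9a1, adjusted p = 0.583). The glutamine and neutral amino acid transporter SLC1A5 (-0.17) and the transsulfuration enzymes CTH (-0.16) and CBS (-0.88, at 0.255 CPM in shG9a1) did not pass.

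In the methionine cycle, which takes up the methyl group made from serine, 5 of 10 tested genes were higher and 5 lower in shG9a1, 7 were higher and 3 lower in shG9a4, and 0 passed. The methionine adenosyltransferase MAT2A averaged 345 CPM in shG9a1, 399 CPM in shG9a4 and 389 CPM in shSCR, and AHCY, which clears S-adenosylhomocysteine, averaged 294 CPM in shG9a1, 285 CPM in shG9a4 and 299.8 CPM in shSCR. MAT1A, the liver form, was at 0.598 CPM in shG9a1, 0.363 CPM in shG9a4 and 0.276 CPM in shSCR (log2 fold change 1.12 in shG9a1, adjusted p = 0.378). BHMT was at 0 in every library, and MTAP stayed under 0.04 CPM.

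Of 28 genes of the ATF4 and amino acid response, 4 were higher and 24 lower in shG9a1, with a median log2 fold change of -0.07, and 7 were higher and 21 lower in shG9a4, with a median of -0.05; 0 passed. Without shSCR replicate 1, 20 were lower in shG9a1 and 14 in shG9a4. ATF4 had 346, 326 and 327 CPM in shG9a1, 416, 374 and 358 CPM in shG9a4 and 466, 375 and 372 CPM in shSCR. All shG9a1 libraries lay below all shSCR libraries, as for 7.54% of all genes. The log2 fold change of ATF4 in shG9a1 was -0.28 (adjusted p = 0.605 by edgeR), and -0.16 without shSCR replicate 1. In shG9a4 it was -0.08, with a change of sign to 0.04 without that library. The asparagine synthetase ASNS, a classical ATF4 target, had 47.5, 45.2 and 42.6 CPM in shG9a1, 51.0, 50.7 and 48.7 CPM in shG9a4 and 65.1, 50.8 and 52.9 CPM in shSCR (log2 fold change -0.32 in shG9a1, adjusted p = 0.564, and -0.20 without shSCR replicate 1). The log2 fold change of ASNS in shG9a4 was -0.17, and -0.05 without shSCR replicate 1. CHAC1 (-0.48), TRIB3 (-0.30) and the cystine carrier SLC7A11 (0.32) had log2 fold changes in shG9a1 that did not pass and did not share a direction.

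**Figure D5:**
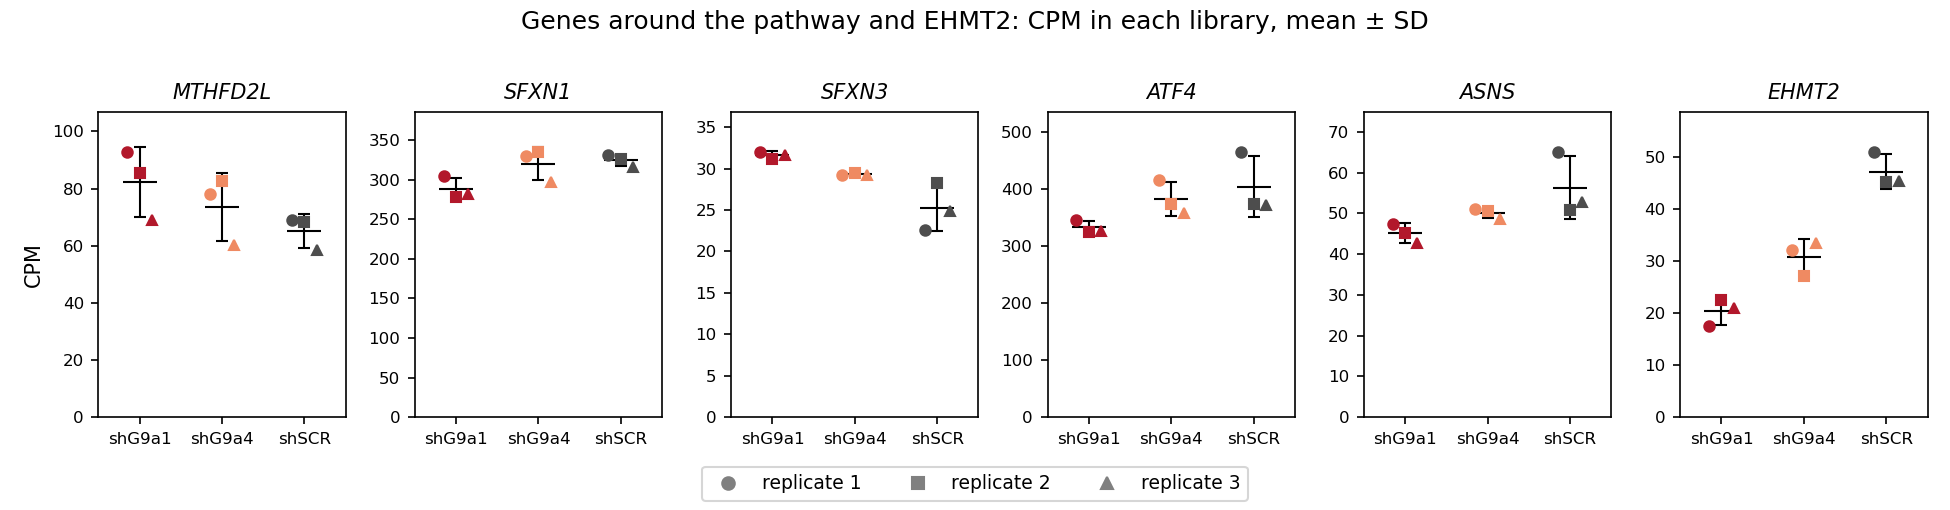
CPM (y axis from 0, a scale of its own per gene) of MTHFD2L, SFXN1, SFXN3, ATF4, ASNS and EHMT2 in the libraries of shG9a1, shG9a4 and shSCR (x axis), with points for libraries and bars for the group mean ± SD. EHMT2 separates the 3 groups, MTHFD2L and SFXN3 are highest on average in shG9a1, and ATF4 and ASNS peak in shSCR replicate 1.

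Of 18 genes of purine and thymidylate synthesis, which use formyl- and methylene-folate, 3 were higher and 15 lower in each hairpin comparison, with medians of -0.08 in shG9a1 and -0.05 in shG9a4, and 0 passed; PRPS1, which makes the ribose donor, had a log2 fold change of -0.16 in shG9a4 (adjusted p = 1.00 by edgeR). Proliferation genes gave 4 higher and 13 lower of 17 in shG9a1 and 5 higher and 12 lower in shG9a4, and 0 passed. MKI67 had log2 fold changes of -0.05 and 0.06, the replication factors MCM3 and MCM7 -0.19 and -0.15 in shG9a1, and PCNA 0.16 in shG9a1 and 0.22 in shG9a4. Of 8 basal markers, 7 were higher and 1 lower in each hairpin comparison, and of 6 tested luminal markers, 4 were higher and 2 lower in each; 0 passed. The basal markers KRT14 (log2 fold change 0.85 in shG9a1 and 0.70 in shG9a4) and COL17A1 (0.30 and 0.44) and the luminal markers KRT8 (0.42 and 0.17) and ESR1 (0.97 and 0.47, at 0.359 CPM at most as a group mean) were higher on average in both hairpin groups, whereas the luminal marker EPCAM, chosen after its values were seen, had a log2 fold change of -0.60 in shG9a1 (adjusted p = 0.821 by edgeR, 0.0511 with the replicate block). KRT14 alone of these passed with the replicate block, in both comparisons (adjusted p = 0.00576 in shG9a1). The part of these markers in the values of the 10 genes was not tested.

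The genes most like PHGDH, PSAT1, SHMT2 and MTHFD2 over the 9 libraries were found by the root mean square difference of their log2 deviations, among 9111 genes with a mean of at least 10 CPM. Nearest to PHGDH were KCTD15 (0.06), HTRA1 (0.08), RERG (0.11), LMO4 (0.12) and PSAT1 (0.12), whereas PHGDH's own deviations had a root mean square of 0.24. Nearest to PSAT1 were ASNS (0.05), LMO4 (0.06), CHPT1 (0.07), KLHL13 (0.07) and HMGN5 (0.07). Nearest to SHMT2 was PSPH (0.04), followed by BCAR3 (0.04), COQ8A (0.05), GPI (0.05) and MRGBP (0.05). Nearest to MTHFD2 were TFAM, MIS12, CHUK, RSL24D1 and RFC3, at 0.03 to 0.04. All of these values share the same 9 libraries, and shSCR replicate 1 weighs on each of them.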

How the data were processed

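The authors deposited counts of reads per gene for each library; GRCh37 (hg19), STAR 2.5.2a, R 3.3.1, edgeR 3.14.0 and DESeq are given for them per the submitters' processing notes. The reverse-strand column was taken because 94.7 to 95.1% of stranded reads lay there. Rows that name no gene were left out: of all reads, 12.2 to 15.4% had no feature, 2.49 to 2.68% were ambiguous, 4.57 to 5.49% mapped to several places and 2.75 to 4.34% did not map. The authors' deposited comparison tables give a posterior probability score and a fold ratio per gene, per the file headers. A separate reference list of gene names named 55277 of the identifiers and GENCODE 29 a further 421. Pseudogenes took at most 0.0452% of the reads of any of the 10 genes.

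Counts were tested with edgeR 4.0.16 (R 4.3.3): TMM scaling, filterByExpr, 1 fit of 9 libraries with a mean per group (6 residual degrees of freedom), two-sided quasi-likelihood tests and Benjamini-Hochberg adjustment over 18435 genes, with 0.05 as the threshold. The procedure was run on simulated counts with known fold changes in shG9a1. These had no deviations shared by replicate number, unlike the data, and the outcome is not reported here. CPM use TMM library sizes. Alternatives were a replicate block, other scalings, DESeq2 1.42.0, the likelihood ratio test, voom (limma 3.58.1), no filter, unstranded counts, only the groups compared, and each library left out. Libraries of the same replicate number shared their deviations from the group means (correlation 0.178 to 0.461 over 9 pairs). The 18 other pairs gave -0.327 to 0.169, with a mean of -0.152. Deviations cancel out within a group, so positive values for the same number make the other pairs negative on average, which is no separate contrast. The numbers were taken to pair the libraries, although shG9a1 replicate 1 was nearly as close to shG9a4 replicate 2 (0.169) as to shG9a4 replicate 1 (0.178). No label ties a number to a day or batch. No library was a duplicate of another in its group (chi-square per degree of freedom 25.2 or more), and pairs across groups were not checked.

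The 10 genes and all lists were chosen with earlier results of these data known. The 10 are named in every comparison. From the lists, the text names fixed genes and any gene with an unadjusted p under 0.05 for either hairpin, and likeness gives 5 neighbours. Some genes of the lists are not reported here by name.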

Additional observations from a re-analysis of the deposited data

How the results depend on the processing

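The log2 fold changes of the 10 genes kept their direction and their side of the threshold in 691 of 710 recomputed values; 1 passed (PHGDH in shG9a1 with no filter, where 1 of the 10 was called) and 18 changed sign. Beside SLC1A4 in shG9a1 with voom (0.0064), the sign changes came from leaving out 1 library. The ranges over libraries left out, as log2 fold changes, were -0.0376 to 0.0803 for SHMT1 and -0.123 to 0.199 for SLC1A4 in shG9a1 against shSCR; -0.261 to 0.0964 for PHGDH, -0.218 to 0.0107 for PSAT1 and -0.177 to 0.150 for SLC1A4 in shG9a4 against shSCR; -0.0995 to 0.0192 for SHMT1, -0.0319 to 0.0125 for MTHFD1, -0.0230 to 0.0534 for ALDH1L2 and -0.0600 to 0.166 for SLC1A4 in shG9a1 against shG9a4; and -0.00452 to 0.0770 for SHMT1 and -0.147 to 0.175 for SLC1A4 for both hairpins. The cause was not tested.

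The count of all genes called moved more. For shG9a1 it was 7, and 143 with the replicate block, 80 with DESeq2, 42 by likelihood ratio, 288 unfiltered and 0 to 10 with a library left out. For shG9a4 it was 5, and 14 with the replicate block, 21 with DESeq2, 17 by likelihood ratio, 49 unfiltered, 1 with unstranded counts, 0 with only the groups compared and 0 to 7 with a library left out. For shG9a1 against shG9a4 it was 0, and 6 with DESeq2, 5 by likelihood ratio and 106 unfiltered. For both hairpins it was 9, and 34 with the block, 40 with DESeq2, 22 by likelihood ratio, 126 unfiltered and 0 to 11 with a library left out. For the replicate number it was 1377, and 2328 by likelihood ratio, 2874 unfiltered and 435 to 2109 with a library left out; of the 10 genes these called 1, 3 and 0 to 2. The replicate block changed no call of the 10 genes. Chosen after seeing the data, the count of the 10 lower at an unadjusted p under 0.05 in shG9a1 was 3 by likelihood ratio and 1 to 6 with a library left out. In shG9a4 that count was 1 with the block and 0 to 1 with a library left out. The share of all genes at that level is not given for the likelihood ratio and left-out fits. The median of the 10 in shG9a4 ranged from -0.159 to -0.0161 with a library left out. Depth was lowest for SLC1A4, with 285 reads or more in a library.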
